A study of Mus musculus with 10 samples.

Results

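Preleptotene spermatocytes (pL), the germ cells that complete the last round of DNA replication before meiotic prophase, were compared with undifferentiated spermatogonia (undiff. SpG), the population that holds the spermatogonial stem cells. The cells are those that the authors assigned to these populations, 1292 undiff. SpG and 1761 pL of 45250 nuclei with scRNA-seq. Of 28125 genes in the expression matrix, the 13069 with a mean RNA of at least 0.05 UMIs per 10000 over both populations were compared, and 13052 of them also had a value in the scATAC-seq matrix. The question was which genes had more or less RNA in pL and whether the accessibility of their chromatin differed in the same direction.

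Wild-type testes were collected at 11, 17 and 25 dpp, and Cre/+ and Nfya-CKO testes at an age of 8 weeks, and RNA and accessible chromatin were read in the same nuclei. Cre/+ and Nfya-CKO mice both carry Stra8-Cre, which is active in spermatogonia, and in Nfya-CKO mice it removes part of Nfya, which encodes a subunit of the CCAAT-binding factor NF-Y. There was 1 library per age or genotype and assay, and the deposited gene values are pooled over libraries into 1 value per population. The ratios of pL to undiff. SpG therefore have no replicate check and no test. Genes are described by the size of the ratio, and intervals cover counting error, or the spread among genes, only.

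In the mouse testis, GDNF from Sertoli cells acts through the receptor RET and its co-receptor GFRA1 to maintain undifferentiated spermatogonia. Retinoic acid then triggers KIT-positive differentiation and, later, expression of STRA8, which together with MEIOSIN switches on genes of the meiotic programme in preleptotene cells. These cells replicate their DNA, load meiotic cohesin and prepare the machinery of recombination before they enter leptotene.

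Both populations came mostly from juvenile testes, but not in the same proportions. The 11 dpp library gave 50% of undiff. SpG and 59.3% of pL, and the 17 dpp library 20.3% and 38.2%. At 25 dpp the shares were 21.7% of undiff. SpG and 2.16% of pL, and in Cre/+ 7.89% and 0.341%. A single undiff. SpG cell came from Nfya-CKO, and 1 had no library name. The juvenile libraries together gave 92.0% of undiff. SpG (exact Clopper-Pearson 95% interval 90.3 to 93.4%) and 99.7% of pL (99.3 to 99.9%). The 11 and 17 dpp libraries alone gave 70.3% (67.7 to 72.8%) and 97.5% (96.7 to 98.2%). Age and population cannot be told apart in the pooled values.

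Depth was similar in both populations. Undiff. SpG held 13781605 UMIs with a median of 9290 per cell, and pL 16001344 UMIs with a median of 8161. At these totals the minimum level of 0.05 per 10000 stands for about 68.9 UMIs in undiff. SpG and 80.0 in pL. For scATAC-seq, 1230 undiff. SpG and 1721 pL carried 35909529 and 49653809 fragments, with medians of 26323.5 and 25138 per cell. The enrichment of fragments at transcription start sites was higher in pL, with a median of 14.3 against 12.5, and so was the median fraction of reads in promoters, 0.233 against 0.195. Within libraries, this enrichment was higher in pL at 11, 17 and 25 dpp. In Cre/+ it was lower in pL, 12.4 against 13.5, with 6 pL cells. The promoter fraction was higher in pL within each library as well, from 0.188 to 0.224 at 11 dpp, 0.213 to 0.255 at 17 dpp, 0.204 to 0.211 at 25 dpp and 0.191 to 0.198 in Cre/+. Its part in the accessibility ratios was not tested.

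Many cell barcodes occurred in more than 1 scRNA-seq library. In all, 5030 of 39674 barcodes did so, with 621 to 853 shared by any 2 wild-type ages, 3813 by Cre/+ and Nfya-CKO, and 0 to 19 by any other 2 libraries. Of undiff. SpG with a library name, 420 of 1291 (32.5%) had such a barcode, and of pL 335 of 1761 (19%). At 11 and 17 dpp these cells were deeper, with a median of 17100 UMIs against 8461 among undiff. SpG at 11 dpp and 15053.5 against 7515 among pL at 17 dpp. At 25 dpp the 13 undiff. SpG and 1 pL cell with such a barcode were shallower, with medians of 1159 against 5101 and 1028 against 5534. Since the deposited values are pooled, they could not be recomputed without these cells, and their part in the results was not tested.

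The names of the populations were set beside 28 markers, which are of the kind the authors used to assign them, so this is no independent check. Of 18 markers of undifferentiated spermatogonia, 18 had more RNA in undiff. SpG than in pL, and 17 had their highest level among 9 germ cell populations in undiff. SpG. Zbtb16, a transcription factor needed for self-renewal, stood at 8.74 UMIs per 10000 in undiff. SpG and 1.14 in pL. Of 10 markers of meiotic entry, 10 had more RNA in pL than in undiff. SpG, but only 2, Stra8 and Kit, were highest in pL among germ cells. Stra8 itself stood at 2.05 in undiff. SpG and 4.86 in pL, so undiff. SpG were not free of its RNA.

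More genes had less RNA in pL than had more. RNA was at least 2-fold higher in pL for 369 genes (2.82% of those tested) and at least 2-fold lower for 998 (7.64%), where each ratio was taken after adding 0.1 per 10000. The median log2 ratio over all genes was -0.02 (order-statistic 95% interval -0.03 to -0.01), and 90% of genes lay between -1.19 and 0.83. The mean level of genes just inside the minimum was low, as in Zfp677 (0.0791 in undiff. SpG and 0.0209 in pL) and Adgrg6 (0.0460 and 0.0541), while Nek10, Rgs11 and Oxsm lay just outside it.

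In what follows, paired values give undiff. SpG first and pL second. The genes with the largest gains were led by an antisense transcript and by germline and meiotic genes. Zfp286os had 0.117 UMIs per 10000 in undiff. SpG and 2.57 in pL, a log2 ratio of 3.62. It overlaps Zfp286, whose own RNA was 0.344 and 0.301, and whether reads were counted by strand is not given in the sources used here, so reads of this pair cannot be told apart. Esx1, an X-linked homeobox gene, followed with 0.380 and 4.62 (log2 ratio 3.30), and Prss50, a testis-specific gene of the serine protease family, with 0.599 and 4.16 (2.61). Meioc, which encodes a partner of the RNA helicase YTHDC2 required to sustain meiotic prophase, went from 0.409 to 2.37 (2.28). Prdm9, the histone methyltransferase that marks recombination hotspots, had 0.122 and 0.974 (2.28), and Dmrtb1, a DM-domain factor of late spermatogonia, 0.133 and 1.03 (2.27).

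Some other genes at the top have roles outside meiosis. They include Elavl3, an RNA-binding protein of neurons, at 0.247 and 1.66 (log2 ratio 2.34), Syt7, a synaptotagmin, at 0.357 and 1.93 (2.15), and Pparg, a nuclear receptor, at 0.0859 and 0.718 (2.14). E2f2, a regulator of S-phase genes, stood at 0.0781 and 0.668 (2.11). The remaining genes among the 15 largest gains were Cited1, M1ap, Ncoa1, Nt5dc2 and Nexmif, with log2 ratios from 2.0 to 2.09. Their levels in undiff. SpG were between 0.171 for Nexmif and 0.791 for M1ap.

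Losses reached larger sizes than gains. Glis3, a zinc-finger transcription factor, had 5.38 UMIs per 10000 in undiff. SpG and 0.128 in pL (log2 ratio -4.59). Kcnc2, a voltage-gated potassium channel, had 3.15 and 0.0384 (-4.55), and the forkhead gene Foxf1 had 2.81 and 0.0421 (-4.36). Ret, the GDNF receptor, stood at 2.30 and 0.0607 (-3.90), and Egr4, an early growth response factor, at 4.16 and 0.232 (-3.68). Sdc4, a heparan sulphate proteoglycan of the cell surface, had 7.76 and 0.710 (-3.28). The other 9 of the 15 largest losses were Aff3, Large2, Zfp462, Bicc1, Sox13, Rin2, Cd274, Stox2 and Onecut2, with log2 ratios from -3.66 to -3.17.

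**Figure D1:**
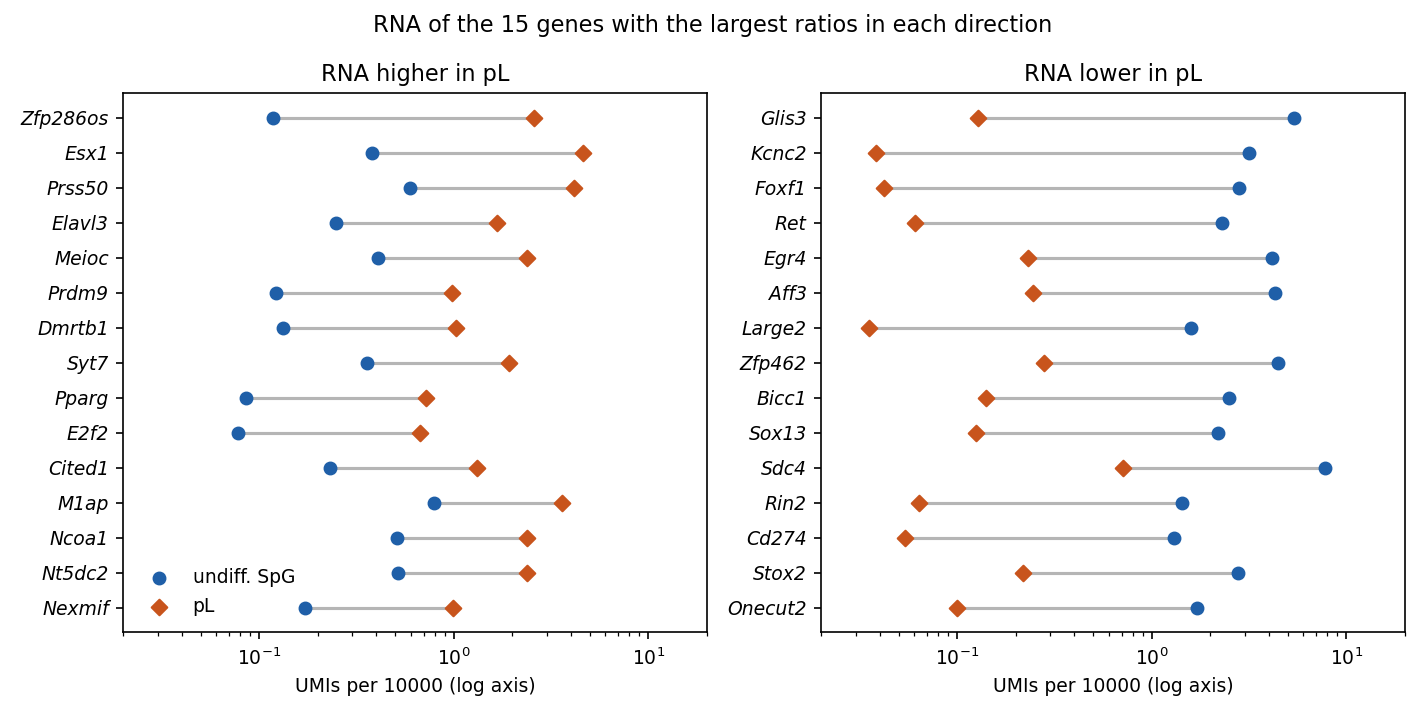
RNA levels in undiff. SpG (blue circles) and pL (orange diamonds), in UMIs per 10000 on a log axis, of the 15 genes that stand highest and the 15 that stand lowest by RNA ratio, taken from genes whose mean was 0.2 or more. Each point is 1 pooled value; genes lower in pL ended between 0.0352 (Large2) and 0.710 (Sdc4), and genes higher in pL started between 0.0781 (E2f2) and 0.791 (M1ap).

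Accessibility per gene was rescaled to a sum of 1000000 over nuclear genes in each population, given here as parts per 1000000 (ppm), and ratios were taken after adding 1 ppm. By this measure 211 genes (1.62%) were at least 1.5-fold more accessible in pL and 1306 (10%) at least 1.5-fold less accessible. The balance of the directions depends on the scaling. With mitochondrial genes left in the total, the median log2 ratio over all genes moved from 0.04 to 0.24, a shift of 0.20, and 1153 genes counted as more accessible against 626 less accessible, which takes the share of gains among these genes from 13.9% to 64.8%. Accessibility ratios below are on the nuclear scale and are read beside the median of all genes, 0.04. Centred on that median, 165 genes were more and 1463 less accessible.

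RNA and accessibility ratios lay on the same side for most genes with a 2-fold ratio in RNA. Genes with RNA at least 2-fold higher in pL had a median accessibility log2 ratio of 0.25 (0.23 to 0.28, n = 368 genes), and 78.0% of them lay above the median of all genes. Genes with RNA at least 2-fold lower had a median of -0.47 (-0.50 to -0.43, n = 998), and 85.7% lay below the median of all genes. With mitochondrial genes in the total, both medians moved up by about the shift, to 0.45 and -0.26. Across 13052 genes, Spearman's rho of the ratios was 0.41, a description over genes that share 2 pooled populations. It was 0.38 when accessibility was centred within 10 groups of genes of similar mean accessibility.

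The accessibility ratio moved in order with the RNA ratio. The median accessibility log2 ratio was -0.97 for the 20 genes with an RNA log2 ratio under -3, -0.63 for 119 genes from -3 to -2 and -0.43 for 859 genes from -2 to -1. It was 0.07 for the 8410 genes from -0.5 to 0.5, 0.24 for 353 genes from 1 to 2 and 0.47 for the 15 genes at 2 or more. Of the 20 genes at the lower end 0% lay above the median of all genes, and of the 15 at the upper end 93.3% did.

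**Figure D2:**
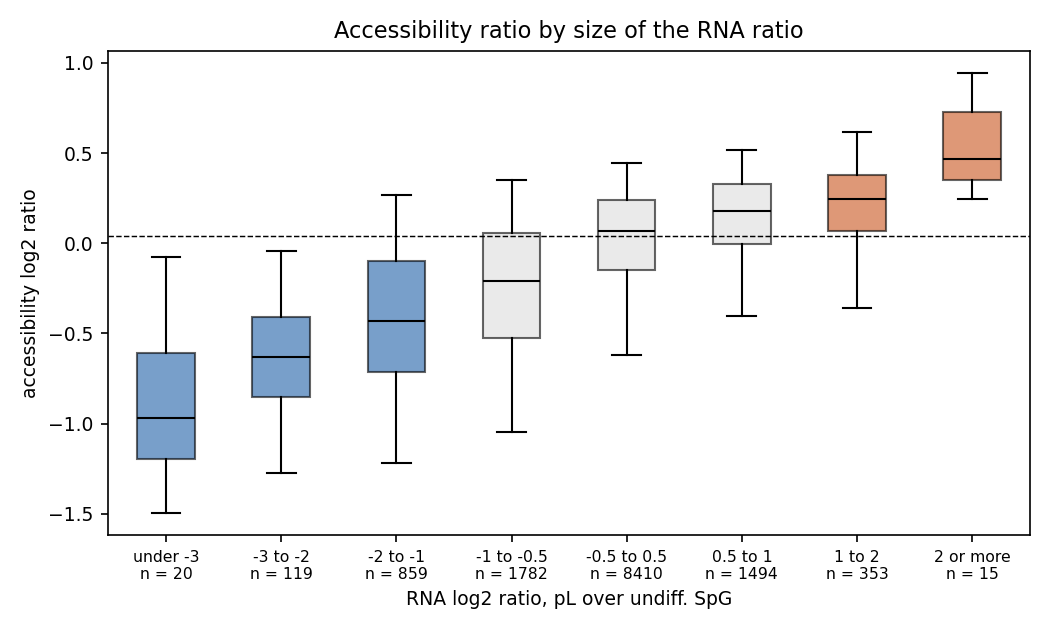
Accessibility log2 ratio (pL over undiff. SpG) for genes grouped by RNA log2 ratio, with boxes from the 25th to the 75th percentile, a line at the median and whiskers from the 5th to the 95th percentile of genes. The dashed line is the median of all genes, 0.04; medians go from -0.97 in the lowest group of 20 genes to 0.47 in the highest group of 15.

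Genes past the limit in both measures were counted on the nuclear scale. Of the 368 genes with higher RNA, 29 (7.88%) were at least 1.5-fold more accessible and 6 (1.63%) at least 1.5-fold less accessible. Of the 998 with lower RNA, 391 (39.2%) were less accessible and 8 (0.802%) more accessible. Read from the other side, 82.5% of the more accessible genes and 69.6% of the less accessible genes had RNA within 2-fold. Over all genes the shares were 1.62% more and 10% less accessible, so less accessible genes were the more frequent whatever their RNA. The joint counts were not made with mitochondrial genes in the total, where that balance reverses.

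Accessibility ratios also differed with the level of accessibility. Among 10 groups of genes ordered by mean accessibility, the median log2 ratio was -0.21 in the lowest group and -0.43 in the next, where 14.4% had RNA at least 2-fold lower. In the highest group the median was 0.27, and 3.75% had lower RNA. After accessibility was centred within these groups, the medians of RNA-higher and RNA-lower genes were 0.21 and -0.34. Long genes also stood apart. Among 10 groups by span from start to end, the longest held genes of at least 143127 bases. There the median RNA log2 ratio was -0.26. RNA was at least 2-fold lower in 18.6% and higher in 4.01%, beside 7.64 and 2.82% of all genes. The median accessibility log2 ratio in that group was -0.23.

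**Figure D3:**
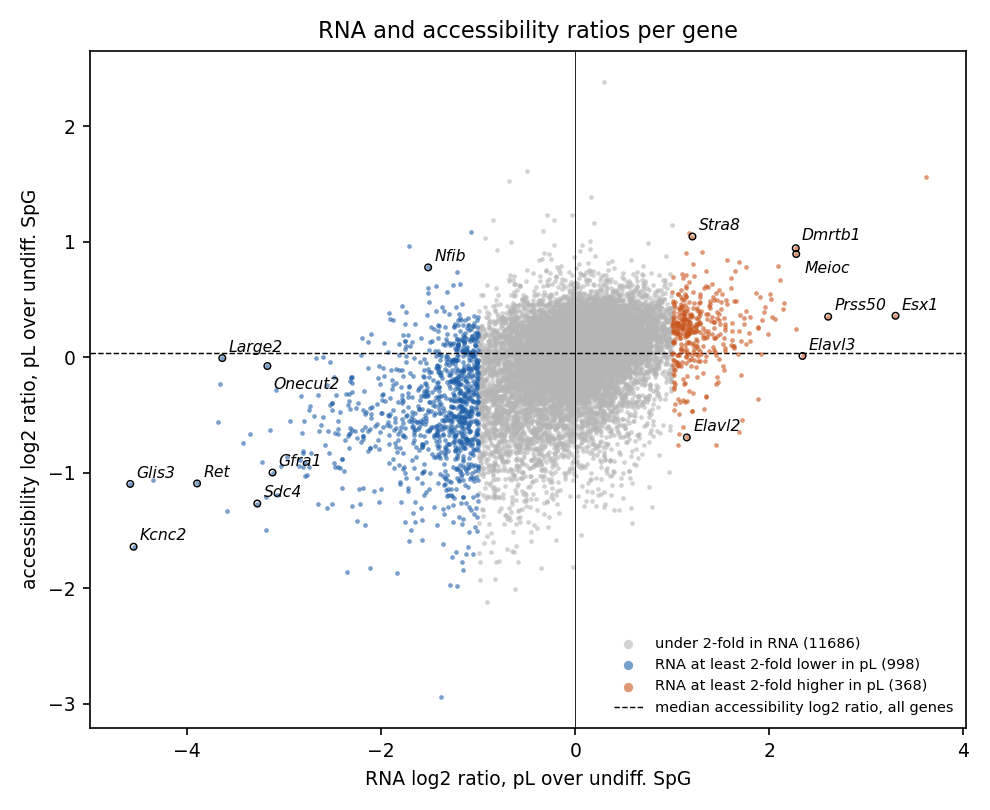
Accessibility log2 ratio against RNA log2 ratio (pL over undiff. SpG) for 13052 genes, with genes at least 2-fold higher in RNA in orange (368), at least 2-fold lower in blue (998) and the rest in grey (11686). The dashed line is the median accessibility ratio of all genes; Stra8, Meioc and Dmrtb1 lie at the upper right, Kcnc2, Glis3, Ret, Gfra1 and Sdc4 at the lower left, and Large2, Onecut2 and Elavl3 near the dashed line.

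Stra8, Dmrtb1, Meioc and Kit had more RNA and more accessible chromatin in pL. Accessibility of Stra8, the retinoic acid-induced regulator of meiotic entry, was 47.8 ppm in undiff. SpG and 99.9 in pL (log2 ratio 1.05), beside an RNA log2 ratio of 1.21. Dmrtb1 went from 45.4 to 88.3 (0.94) and Meioc from 47.2 to 88.7 (0.89). Kit, the receptor of stem cell factor, had 39.5 and 68.5 (0.78), with RNA of 0.548 and 2.09 (1.75). Vamp2, a vesicle SNARE, had 23.0 and 44.1 (0.91), with RNA of 0.133 and 0.476 (1.31). Zfp286os had 2.74 and 10 (1.56), at a low level in both populations.

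Other genes were lower in pL by both measures. Kcnc2 stood at 97.7 and 30.7 ppm (log2 ratio -1.64), Zfp462 at 62.6 and 24.3 (-1.33) and Sdc4 at 80.7 and 33.0 (-1.27). Glis3 had 70.1 and 32.3 (-1.10), Ret 65.1 and 30.0 (-1.09) and Foxf1 82.2 and 38.7 (-1.07). Cd274, the immune ligand PD-L1, had 53.8 and 18.4 (-1.49), but it overlaps Plgrkt, which had 54.1 and 18.5, and the same fragments may stand behind both values.

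Some of the largest RNA ratios came with accessibility near the median of all genes. Large2, a glycosyltransferase gene, had RNA of 1.58 and 0.0352 (log2 ratio -3.64) and accessibility of 128 and 127 ppm (-0.01). Onecut2, a homeobox factor, had RNA of 1.70 and 0.0996 (-3.17) and accessibility of 79.5 and 75.4 (-0.08). Elavl3 had an accessibility log2 ratio of 0.01 beside its RNA ratio of 2.34, with 54.4 and 54.9 ppm. In these genes the accessibility value differed little while RNA differed by more than 4-fold.

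Past both limits, the measures went in opposite directions in 6 genes with higher RNA and 8 with lower RNA. Elavl2, an RNA-binding protein of germ cells and neurons, had RNA of 1.66 and 3.81 (log2 ratio 1.15) and accessibility of 27.7 and 16.8 ppm (-0.69). Cul5, a ubiquitin ligase scaffold, had an RNA log2 ratio of 1.06 and accessibility of 12.3 and 6.85 (-0.76). The reverse was seen in Nfib, a nuclear factor I gene, with RNA of 2.59 and 0.840 (-1.52) and accessibility of 5.04 and 9.36 (0.78). Mxra7, Nos1 and Cbx7 followed Nfib, and Ston2 followed Elavl2. Naa20 came next after Cbx7, but its accessibility log2 ratio of 0.55 was under the 1.5-fold limit.

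Several of the largest gains of accessibility were in genes with little difference in RNA. Cdca8, a subunit of the chromosomal passenger complex, had accessibility of 14.4 and 35.1 ppm (log2 ratio 1.23) and RNA of 1.33 and 1.30. Bud23, a ribosomal RNA methyltransferase gene, had 58.0 and 115 (0.97) and RNA of 0.369 and 0.392. Trim17 had 79.1 and 170 (1.09) with RNA of 0.170 and 0.115, and it overlaps histone genes. Among genes less accessible in pL, Rsph4a, a radial spoke gene of motile cilia, had 38.8 and 11.2 (-1.71), and its RNA was lower too, at 0.160 and 0.0191 (-1.12).

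Promoter sequence is shown for 6 of these genes, 3 with more and 3 with less RNA and accessibility in pL, because NF-Y binds CCAAT boxes and the study asks how NF-Y acts at meiotic entry. Each run is the 250 bases before the RefSeq start taken for the promoter in GRCm38.p6, 5′ to 3′ on the strand of the gene. Capitals mark matches of the letters searched on both strands. For Stra8 and Dmrtb1 the run lies inside the span from start to end of the gene used above. The letters searched were CCAAT for NF-Y, CACGTG for E-box factors, TTGGCGC as well as TTCCCGC for E2F, CNCCTCAG for STRA8, GGGCGG for factors of the GC box, TGACGTCA for CREB and TATAAA for the TATA box. Stra8 lies at chr6:34920698-34920947, Dmrtb1 at chr4:107684231-107684480 on the minus strand, Meioc at chr11:102665335-102665584, Kcnc2 at chr10:112269767-112270016, Gfra1 at chr19:58455399-58455648 on the minus strand and Sdc4 at chr2:164443189-164443438 on the minus strand.
Stra8: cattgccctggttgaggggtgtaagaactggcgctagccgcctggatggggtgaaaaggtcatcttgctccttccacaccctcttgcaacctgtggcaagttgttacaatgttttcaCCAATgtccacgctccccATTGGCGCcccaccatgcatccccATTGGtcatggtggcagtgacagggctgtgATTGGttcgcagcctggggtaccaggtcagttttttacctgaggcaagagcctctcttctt
Dmrtb1: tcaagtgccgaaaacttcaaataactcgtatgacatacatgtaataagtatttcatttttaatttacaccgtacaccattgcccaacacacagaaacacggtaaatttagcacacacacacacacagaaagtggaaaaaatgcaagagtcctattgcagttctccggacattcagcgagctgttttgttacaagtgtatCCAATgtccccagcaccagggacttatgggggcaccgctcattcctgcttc
Meioc: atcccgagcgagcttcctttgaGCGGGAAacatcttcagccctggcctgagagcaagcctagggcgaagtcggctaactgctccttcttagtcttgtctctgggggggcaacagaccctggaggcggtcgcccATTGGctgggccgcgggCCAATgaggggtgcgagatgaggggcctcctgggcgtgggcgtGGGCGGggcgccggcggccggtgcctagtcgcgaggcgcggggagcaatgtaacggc
Kcnc2: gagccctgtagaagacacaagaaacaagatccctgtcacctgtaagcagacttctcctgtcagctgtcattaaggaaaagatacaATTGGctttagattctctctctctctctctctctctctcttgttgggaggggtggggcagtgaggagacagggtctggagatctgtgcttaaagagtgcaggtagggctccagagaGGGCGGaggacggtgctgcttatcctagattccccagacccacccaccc
Gfra1: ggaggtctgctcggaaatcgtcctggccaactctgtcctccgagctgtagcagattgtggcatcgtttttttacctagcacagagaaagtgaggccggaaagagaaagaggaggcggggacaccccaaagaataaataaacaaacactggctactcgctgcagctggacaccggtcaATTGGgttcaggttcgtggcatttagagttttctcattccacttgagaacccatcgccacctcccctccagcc
Sdc4: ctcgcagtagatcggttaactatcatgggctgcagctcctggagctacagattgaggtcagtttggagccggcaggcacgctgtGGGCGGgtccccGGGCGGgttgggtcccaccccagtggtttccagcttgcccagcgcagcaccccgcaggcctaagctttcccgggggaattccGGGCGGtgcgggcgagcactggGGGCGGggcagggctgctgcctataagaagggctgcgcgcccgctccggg

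In the run of Stra8, CCAAT or its complement begins 133, 115, 91 and 61 bases before the start, and the match to TTGGCGC 114 bases before it shares bases with the CCAAT match at 115. Meioc has CCAAT matches at 117 and 100, TTCCCGC at 228 and GGGCGG at 57 bases before the start, and Dmrtb1 has a CCAAT match at 51. CCAAT and GGGCGG also occur in genes with lower RNA. Kcnc2 has CCAAT at 165 and GGGCGG at 49, Gfra1 has CCAAT at 73, and Sdc4 has GGGCGG at 166, 154, 72 and 50. A match is a run of letters and not evidence of a bound site.

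CCAAT and the other letters were counted in all promoters that could be matched. In the window from 250 bases before to 50 after the start, CCAAT was found in 41.3% of 293 RNA-higher genes (exact Clopper-Pearson 95% interval 35.6 to 47.2%), 36.4% of 719 RNA-lower genes (32.9 to 40.1%), 39.6% of 10022 genes tested and 38.0% of 27025 RefSeq promoters. In the bases before the start alone it was in 40.3% of RNA-higher genes, 33.5% of RNA-lower genes (30.1 to 37.1%) and 37.3% of genes tested. The letters CNCCTCAG were found in 16.0% of RNA-higher genes (12 to 20.8%), 6.95% of RNA-lower genes (5.21 to 9.07%), 9.55% of genes tested and 7.98% of RefSeq promoters. For TTCCCGC the shares were 12.3% (8.76 to 16.6%), 6.68% (4.96 to 8.75%), 8.96% and 4.67%. These intervals cover counting error only. With 8 sets of letters searched in genes chosen on a pooled ratio, they are no test of a difference between groups. In the bases before the start alone, TTCCCGC was in 10.9% of RNA-higher genes (7.59 to 15.1%) and 7.40% of genes tested. There, CNCCTCAG was in 11.3% of RNA-higher genes (7.88 to 15.5%), 5.29% of RNA-lower genes and 7.45% of genes tested.

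The shares of the other letters were as follows. GGGCGG was found in 68.6% of RNA-higher, 59.5% of RNA-lower and 65.8% of tested genes, beside 35.9% of RefSeq promoters, and the median GC content was 63.0, 61.0 and 61.3%. TTGGCGC was found in 5.46, 3.89, 4.83 and 2.57% of these promoters in the same order, CACGTG in 8.19, 9.87, 10.8 and 7.24%, TGACGTCA in 2.05, 2.09, 3.44 and 1.85%, and TATAAA in 7.51, 7.93, 6.34 and 14.2%. Among genes grouped by accessibility, CCAAT was in 46.8% of 158 more accessible and 42.2% of 928 less accessible genes. TTGGCGC was in 9.49% (5.41 to 15.2%) and 2.91% (1.93 to 4.21%), beside 4.83% of genes tested. The less accessible promoters were also poorer in GC, with a median of 56.0% against 60.3% in the more accessible ones. GGGCGG was in 58.9% of more and 49.6% of less accessible genes, and TTCCCGC in 8.86 and 4.85%. The part of GC content in these shares was not tested.

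The 369 and 998 genes were followed over the 9 germ cell populations. Undiff. SpG and pL chose these genes, so their levels there, and a median that is extreme in pL, are fixed by the choice and are given as a description. Comparisons of another population with undiff. SpG or pL share that value with the choice, so the shares of all genes beside them are not what no change would give. Genes with higher RNA in pL had a median of 0.323 UMIs per 10000 in undiff. SpG, 0.758 in differentiating spermatogonia (diff. SpG), 0.974 in pL, 0.733 in early leptotene to zygotene cells (eL/L/Z) and 0.506 in L/Z/eP spermatocytes. By mid and late pachytene (mP/lP) the median was 0.306. Of these genes, 237 (64.2%) had their highest germ cell level in pL, beside 21.2% of all genes. In diff. SpG, 173 (46.9%) were at least 2-fold above undiff. SpG, beside 6.75% of all genes, and 14 (3.79%) were at least 2-fold higher in pL than in diff. SpG, beside 1.49%. In eL/L/Z 164 (44.4%) were still at least 2-fold above undiff. SpG, beside 4.76% of all genes, and in mP/lP 66 (17.9%), beside 11.5%.

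The median of genes with lower RNA in pL was 0.517 in undiff. SpG, 0.208 in diff. SpG, 0.110 in pL and 0.232 in eL/L/Z. Of the 998, 591 (59.2%) were at least 2-fold lower in diff. SpG than in undiff. SpG, beside 7.70% of all genes, and 202 (20.2%) were at least 2-fold lower in pL than in diff. SpG, beside 6.67%. In eL/L/Z 507 (50.8%) were at least 2-fold below undiff. SpG, beside 5.56% of all genes, and 169 (16.9%) were at least 2-fold higher than in pL, beside 4.45%. In mP/lP 643 (64.4%) were at least 2-fold below undiff. SpG, beside 25% of all genes. Their highest germ cell level was in undiff. SpG for 654 (65.5%), beside 24.4% of all genes. It was in round spermatids (RS) for 15.4%, in mP/lP for 9.72% and in elongating spermatids (ES) for 7.31%, beside 11.3, 11.5 and 12.2% of all genes.

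Accessibility was followed in the same genes. The median of RNA-lower genes was 46.0 ppm in undiff. SpG and 26.1 in diff. SpG, then 30.9 in pL and 26.4 in eL/L/Z. The median of RNA-higher genes moved from 50.6 to 56.2, 58.9 and 56.6 over these populations. Over all genes the median lay between 52.7 and 53.9 in these 4 populations.

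**Figure D4:**
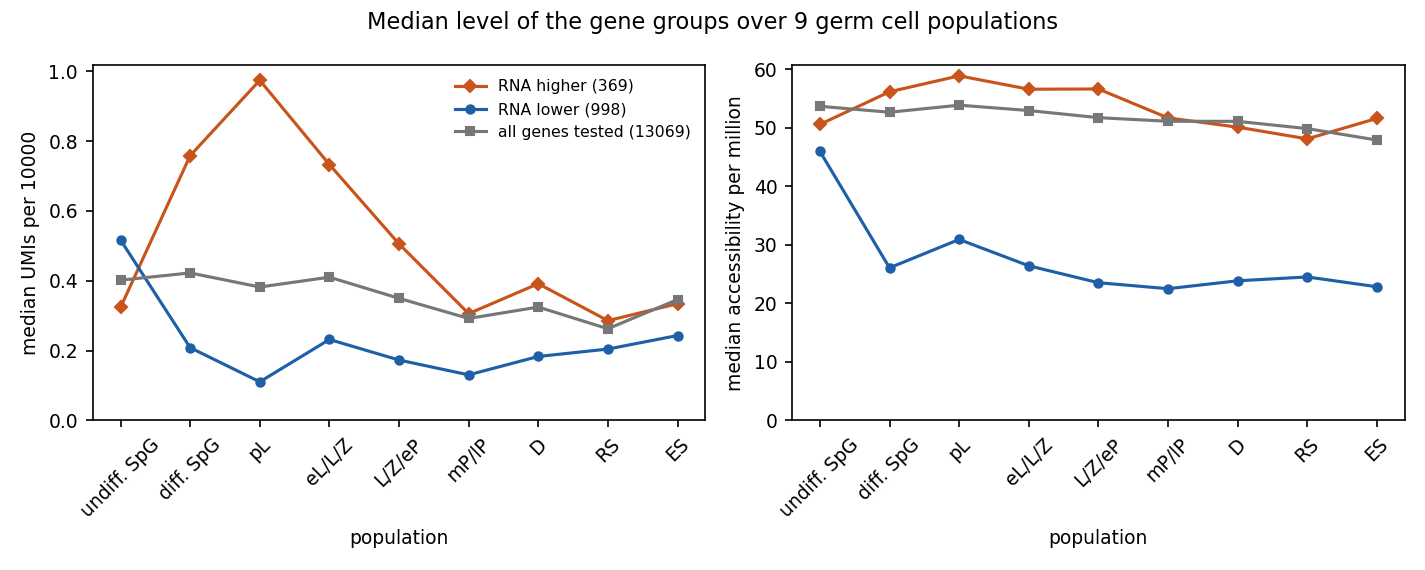
Median RNA (left, UMIs per 10000) and median accessibility (right, ppm over nuclear genes) over 9 germ cell populations (D stands for diplotene), for genes with RNA at least 2-fold higher in pL (orange, 369), at least 2-fold lower (blue, 998) and all genes tested (grey, 13069). Each point is a median over genes of 1 pooled value per population; undiff. SpG and pL chose the genes, and the RNA medians are 0.974 and 0.110 in pL.

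Genes of the undifferentiated state include markers of the kind that define undiff. SpG, so their direction is not independent of the population labels. Of 36 tested, 23 (63.9%) were at least 2-fold lower and 0 at least 2-fold higher, beside 7.64 and 2.82% of all genes. The median RNA log2 ratio was -1.24 (-1.93 to -0.94) beside -0.02 over all genes, and the median accessibility log2 ratio was -0.24. Ccnd2, a D-type cyclin, had RNA of 10.8 and 1.24 UMIs per 10000, Gfra1, the GDNF co-receptor, 1.08 and 0.0356, and Neurog3, a marker of progenitors, 1.04 and 0.0640. Etv5, a target of GDNF signalling, had 0.760 and 0.0535, and Lin28a, an RNA-binding protein that blocks let-7, 2.59 and 0.919. Nanos2, a translational repressor of stem cells, had 0.0986 and 0.00339 (log2 ratio -0.94), which the added 0.1 keeps under the limit, and its accessibility log2 ratio was -1.61. Id4 and Foxo1 had lower RNA (0.682 and 0.105, 5.35 and 2.18) with accessibility log2 ratios of 0.04 and -0.03. Among genes under the limit, Itgb1, Taf4b and Epcam had positive RNA log2 ratios of 0.52, 0.61 and 0.78.

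Of 21 genes of GDNF and FGF signalling, 8 (38.1%) were at least 2-fold lower, beside 7.64% of all genes, and 1, Kit, at least 2-fold higher. The median RNA log2 ratio was -0.85, with an interval of -1.80 to 0.14 that holds the median of all genes. The lower genes were Ret, Gfra1, Etv5, Spry4, Dusp6, Etv4, Insr and Spry1, which include feedback inhibitors of ERK signalling, and Dusp6 had 1.01 and 0.174 UMIs per 10000. Fgfr2, in contrast, had 5.70 and 7.43 (0.38), and Igf1r, the IGF1 receptor, 8.75 and 4.36 (-0.99). Of 27 genes of adhesion and migration, 8 (29.6%) were lower, among them Itga6, Robo1 and Ncam1, beside 7.64% of all genes, and 3 (11.1%, beside 2.82%) were higher, Slit2, Cdh2 and Efnb2.

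Differentiation and meiotic entry genes lay on the other side. These lists too hold markers of the kind that define the populations, such as Kit and Stra8, so their direction is not independent of the labels. Of 17 genes of differentiating spermatogonia, 8 (47.1%) were at least 2-fold higher and 3 (17.6%) lower, beside 2.82 and 7.64% of all genes. The median RNA log2 ratio was 0.90 and the median accessibility log2 ratio 0.27. The higher genes included Kit, Stra8, Esx1, Rhox13 (0.227 and 0.991 UMIs per 10000) and the D-type cyclin Ccnd1 (1.48 and 4.39), and the lower ones were Sall4 (4.88 and 1.09), which is also a marker of undiff. SpG, Prtg (1.99 and 0.448) and Sohlh1 (1.75 and 0.770). Of 32 genes of meiotic entry, 11 (34.4%) were higher and 0 lower, beside the same 2.82 and 7.64% of all genes. Their median RNA log2 ratio was 0.70 (0.19 to 1.08) and their median accessibility log2 ratio 0.27. The 11 higher genes were Prss50, Meioc, Prdm9, Mei1, Ly6k, Ccdc36, Hormad1, Stra8, Dmc1, Setdb2 and Smc1b.

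Within the meiotic entry list the genes differed in how far they had moved. Mei1, needed for meiotic DNA breaks, had 0.352 and 1.18 UMIs per 10000, Hormad1, a protein of unsynapsed chromosome axes, 0.493 and 1.31, and Dmc1, the meiotic recombinase, 0.766 and 1.79. Gm4969, which encodes MEIOSIN, had 0.0710 and 0.216 (log2 ratio 0.88), and the meiotic cohesin Rec8 had 0.140 and 0.298 (0.73). Sycp3, of the lateral elements of the synaptonemal complex, had 0.673 and 1.20 (0.75). Spo11, which cuts DNA to start recombination, had 0.156 and 0.0993 (-0.36). Of 12 retinoic acid genes, 1 (8.33%, beside 2.82% of all genes) was higher, Cyp26b1, an enzyme that degrades retinoic acid, at 0.0604 and 0.232.

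Lists of later meiotic functions are read beside the 2.82% of all genes that were higher. Of 12 genes for making DNA breaks 4 (33.3%) were higher (Prdm9, Mei1, Ccdc36 and Dmc1), with a median RNA log2 ratio of 0.67. Of 12 genes of the synaptonemal complex and HORMA proteins 1 (8.33%) was higher, with a median of 0.48, and Sycp1, the transverse filament, had 5.74 and 8.68 UMIs per 10000 (0.59). Strand exchange had 1 of 32 (3.13%), close to the share of all genes, and a median of 0.28. Crossover and mismatch repair had 1 of 22 (4.55%), Tex11 (0.952 and 2.07), and a median of 0.31. Of 18 cohesin genes 2 (11.1%) were higher, Smc1b (3.38 and 7.17) and Esco2, which acetylates cohesin in S phase (0.643 and 1.47), while Rad21, the mitotic kleisin, had a log2 ratio of -0.29. None of the genes tested in these 5 lists was at least 2-fold lower. Median accessibility log2 ratios were 0.31 for DNA breaks, 0.22 for strand exchange and 0.31 for cohesin, beside 0.04 over all genes. They were -0.06 for the synaptonemal complex list, whose 12 genes all had RNA ratios above 1, and -0.0001 for crossover and mismatch repair.

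Replication genes had medians above that of all genes. Of 27 licensing and firing genes, 2 (7.41%, beside 2.82% of all genes) were at least 2-fold higher, Ticrr (0.360 and 1.26 UMIs per 10000) and Gins2 (0.181 and 0.507), and the median RNA log2 ratio was 0.46. Of 40 genes of DNA synthesis, 5 (12.5%) were higher and the median was 0.38. They were Rrm2, the regulated subunit of ribonucleotide reductase (0.213 and 0.987), the histone chaperones Asf1b (0.523 and 1.80) and Nasp (2.52 and 5.17), the histone mRNA-binding protein Slbp (0.716 and 1.79) and Pcna, the sliding clamp (0.569 and 1.24). Mcm5 and Mcm2, of the replicative helicase, had log2 ratios of 0.74 and 0.22. Of 26 replication-dependent histone genes only 2 passed the minimum, so the list was not summarised.

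Cell cycle regulators moved in both directions. The list held 30 tested genes, namely cyclins, their kinases and inhibitors, and related genes. Of these, 3 (10%) were higher (E2f2, Ccne2 and Ccnd1), beside 2.82% of all genes. Another 5 (16.7%) were lower (Ccnd2, Cdkn1b, Ccnd3, Cdkn1c and Cdk4), beside 7.64%. Ccne2, the S-phase cyclin E2, had 0.159 and 0.744 UMIs per 10000 (log2 ratio 1.70), and the CDK inhibitor Cdkn1b 1.21 and 0.247. The D-type cyclins split, with Ccnd1 higher (1.48 and 4.39) and Ccnd2 (10.8 and 1.24) and Ccnd3 (2.52 and 0.649) lower. Of 50 genes of the mitosis machinery 7 (14%) were higher and 0 lower, beside 2.82 and 7.64% of all genes, with a median of 0.33. The higher genes included Mki67 (1.79 and 4.24) and Top2a (3.34 and 7.21). Cdk1 (0.644 and 0.682) and Ccnb1 (0.95 and 0.869), the kinase and cyclin of mitotic entry, were within 2-fold.

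The study's own list of mitosis genes was chosen on bulk RNA-seq of sorted germ cells and not on these libraries. Its median RNA ratio lay below that of all genes. Of 1079 tested genes 206 (19.09%) were at least 2-fold lower in pL and 46 (4.26%) higher, beside 7.64 and 2.82% of all genes. The median RNA log2 ratio was -0.18. The median accessibility log2 ratio was -0.04, which became 0.16 with mitochondrial genes in the total. Because this list was itself chosen on expression in germ cell stages, it is not independent evidence of a direction.

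PIWI-pathway genes also had a median below that of all genes. Of 24 tested 6 (25%) were at least 2-fold lower and 0 higher, beside 7.64 and 2.82% of all genes, with a median RNA log2 ratio of -0.55 (-0.83 to -0.30). Piwil4, the nuclear PIWI protein of transposon methylation, had 0.867 and 0.0826 UMIs per 10000 (log2 ratio -2.41, accessibility -1.13), and its partner Spocd1 0.527 and 0.0247 (-2.33). Tdrd5, Gtsf1, Tdrd1 and Piwil1 were the others, with Tdrd1 at 2.57 and 1.15. Of 28 germ cell RNA-binding genes 3 (10.7%) were higher (Meioc, Cpeb2 and Elavl2) and 2 (7.14%, near the share of all genes) lower, Lin28a and Msi2 (6.08 and 2.0).

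Chromatin and promoter factors had shares of lower genes near or under the 7.64% of all genes. Of 37 Polycomb and H3K9 methylation genes 3 (8.11%, beside 2.82% of all genes) were higher and 2 (5.41%) lower. The lower genes were Pcgf6, of a Polycomb complex that silences germline genes (0.736 and 0.137 UMIs per 10000), and Cbx7 (0.776 and 0.223). Of 13 genes of DNA methylation 1 (7.69%), Mbd2, was lower. Among 22 genes of NF-Y and other promoter factors 1 (4.55%), Usf1, was lower (1.28 and 0.270). Nfya had 0.456 and 0.414 (log2 ratio -0.11), Nfyb 0.639 and 0.838 (0.34) and Nfyc 1.17 and 1.73 (0.53), and the accessibility of Nfya was 140 and 194 ppm (0.47).

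Metabolic and ribosomal genes were measured as well. Of 17 glycolysis genes 6 (35.3%) were at least 2-fold lower and 0 higher, beside 7.64 and 2.82% of all genes, with a median RNA log2 ratio of -0.74 (-1.16 to 0.11). They were the glucose transporters Slc2a3 (0.986 and 0.228 UMIs per 10000) and Slc2a1, and Eno1, Pfkp, Pkm (1.59 and 0.658) and Hk1, while Gapdh had 1.55 and 1.68. Of 77 genes of oxidative phosphorylation 1 (1.30%), Ndufa1, was higher and 1 (1.30%), Cyct, lower, under the shares of all genes, with a median of 0.10. Of 82 ribosomal protein genes 65 had a ratio under 1, and 2 (2.44%, under the 7.64% of all genes) were at least 2-fold lower (Rps4x and Rpl22l1). The median was -0.26 (-0.36 to -0.15), beside -0.02 over all genes, and their summed level was 249.5 and 205.9. Their accessibility lay on the other side. Its median log2 ratio was 0.18 (0.13 to 0.23), and 69 of the 82 genes lay above the median of all genes, 0.04.

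X-linked and imprinted genes were counted as well. Of 462 X-linked genes 28 (6.06%) were at least 2-fold higher in pL and 25 (5.41%) lower, against 2.77% and 7.62% of 11981 autosomal genes, where single chromosomes had from 0.935 to 4.50% higher. The median RNA log2 ratio on the X was 0.07. Its median accessibility log2 ratio was -0.11, while single autosomes ran from -0.09 to 0.16. Centred within groups of like accessibility it was 0.11, so its direction depends on the centring. Of 17 X-linked germ cell genes 4 (23.5%) were higher, Esx1, Rhox13, Tex13b and Tex11, and 0 lower, beside 2.82 and 7.64% of all genes. Among these 17, 1 was at least 1.5-fold more accessible and 4 less accessible, beside 1.62 and 10% of all genes. Of 24 imprinted genes 2 (8.33%) were higher and 2 (8.33%) lower, the latter near the 7.64% of all genes. Those higher were the long RNAs Kcnq1ot1 (1.74 and 3.95 UMIs per 10000) and Airn, and those lower Cdkn1c, which lies in the domain of Kcnq1ot1, and Ndn.

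**Figure D5:**
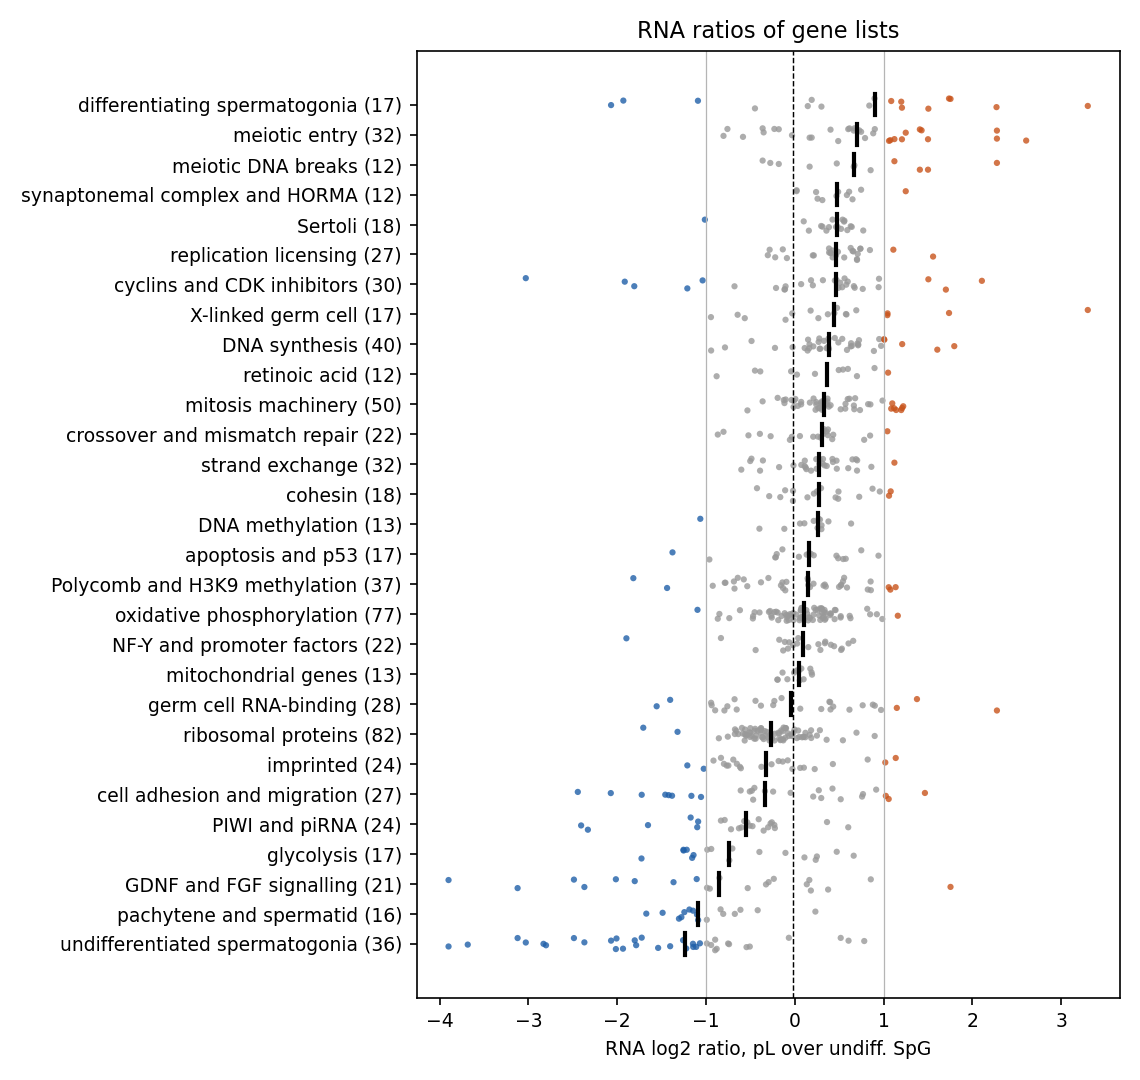
RNA log2 ratios (pL over undiff. SpG) of the genes tested in 29 gene lists, 1 point per gene, with the number of genes in brackets, a black bar at the list's median, grey lines at 2-fold and a dashed line at the median of all genes (-0.02). Genes at least 2-fold higher are orange and at least 2-fold lower blue; medians go from -1.24 for undifferentiated spermatogonia to 0.90 for differentiating spermatogonia.

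RNA of markers of other cell types was present in both populations and differed between them. Of 16 pachytene and spermatid genes 9 (56.25%) were at least 2-fold lower in pL and 0 higher, beside 7.64 and 2.82% of all genes. Their median RNA log2 ratio was -1.09, and their summed level was 6.86 UMIs per 10000 in undiff. SpG, 3.91 in pL, 33.2 in diff. SpG and 213 in ES. Prm1, which packs DNA in spermatids, had 0.155 and 0.00525, and Ldhc, the lactate dehydrogenase of germ cells, 0.579 and 0.113. These genes moved with the share of cells from 25 dpp, 21.7% in undiff. SpG and 2.16% in pL, and from Cre/+, 7.89 and 0.341%. Without the genes whose highest level is in mP/lP or later, 308 genes had higher and 657 lower RNA, a change made after seeing the data. Fewer genes were then compared in all. Over all genes, 11.5% were highest in mP/lP, 2.18% in diplotene cells, 11.3% in RS and 12.2% in ES. In the same order the shares were 9.72, 1.70, 15.4 and 7.31% of RNA-lower genes. Among RNA-higher genes they were 5.69, 1.08, 6.23 and 3.52%. The part of late germ cell RNA in the remaining genes was not tested.

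Somatic markers were also measured. Of 18 Sertoli cell genes 17 had a ratio above 1, with a median RNA log2 ratio of 0.47. At the 2-fold limit 0 were higher and 1 (5.56%), Trf, lower, beside 2.82 and 7.64% of all genes. Their summed level was 12 in undiff. SpG and 17.7 in pL, against 184 in Sertoli cells. Clu had 2.50 and 3.72, and Sox9 0.531 and 0.771. The median accessibility log2 ratio of the 18 Sertoli cell genes was -0.24 (-0.58 to -0.12), and 2 lay above the median of all genes. Peritubular and endothelial genes had summed levels of 3.91 and 1.12, and 1 of 6 tested (16.7%, beside 7.64% of all genes), Col1a1, was lower, at 3.03 and 0.583. Leydig and macrophage lists had summed levels of 0.405 and 0.491, and of 0.238 and 0.141, and only 2 and 1 genes above the minimum. The part of somatic RNA in the ratios of other genes was not tested. Of 17 genes of apoptosis and p53 signalling 1 (5.88%, near the 7.64% of all genes), Pmaip1, was lower, with a median of 0.16.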

How the data were processed

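Gene values of both assays were deposited as the natural log of 1 plus a mean per 10000, 1 value for each of 13 populations pooled over libraries; the study's methods measure promoter accessibility as mean coverage near the TSS, but whether the deposited scATAC-seq matrix counts that region is not given in the sources used here. The authors aligned RNA reads with STAR 2.7.10b and chromatin reads with BWA 0.7.12 (ends shifted with bedtools 2.27.1) to mm10, collapsed UMIs, and filtered cells and doublets with Seurat 5.2.1, DoubletFinder and ArchR 1.0.3. The authors deposited the count of UMIs, genes and fragments of each cell, the percent of mitochondrial UMIs, the fraction of reads in promoters, and TSS enrichment as a ratio to flanking windows. Of the cell tables, 19 further columns were not used.

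Values were turned back to a linear scale with scipy 1.17.1, pandas 2.3.3 and numpy 2.4.6 under Python 3.11.15, and figures drawn with matplotlib 3.10.9. RNA ratios used a pseudocount of 0.1 and a minimum mean of 0.05, and accessibility ratios a scale of 1000000 over nuclear genes and a pseudocount of 1, which understate the ratios of low genes. With 1 pooled value per population no test was run; medians have order-statistic intervals and shares exact Clopper-Pearson 95% intervals. The scripts were tested on simulated data. Levels were not compared between genes, since they are not per length.

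The comparison, the 34 gene lists and the markers were chosen with earlier results of these data known. Named genes were the 15 largest RNA ratios in each direction (mean of at least 0.2), the 8 largest accessibility ratios in each direction (mean of at least 20), the 5 largest accessibility ratios in the same and in the opposite direction among genes 2-fold apart in RNA, and list members; those printed in full are a choice among them. Promoters are from RefSeq, GRCm38.p6, matched by symbol for 10030 genes (76.7%), and positions for 12453 (95.3%). Alternatives covered pseudocounts, minimums, scaling, fold limits, cells with at least 1000 genes, and the promoter window.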

Additional observations from a re-analysis of the deposited data

How the results depend on the processing

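No paired analysis was possible because the matrices hold 1 pooled value per population. No library could be left out for the same reason. RNA-lower genes outnumbered RNA-higher genes under each setting tried, while the balance of accessibility reversed with mitochondrial genes in the total. The 369 RNA-higher and 998 RNA-lower genes became 689 and 1848 with an RNA pseudocount of 0.02, 63 and 208 with 0.5, 1434 and 2368 at 1.5-fold, and 15 and 139 at 4-fold; a minimum of 0.2 left 653 lower genes, and leaving out genes highest in mP/lP or later, added after seeing the data, left 657. The 211 more and 1306 less accessible genes became 1153 and 626 with mitochondrial genes in the total, 1883 and 2662 at a log2 limit of 0.32, 18 and 314 at 2-fold, and 398 and 700 when centred within 10 groups of like accessibility, also added after seeing the data; a pseudocount of 5 left 125 more accessible genes.

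The median accessibility log2 ratio of RNA-higher genes was 0.25, and 0.22 with an RNA pseudocount of 0.02 and 0.35 with 0.5. It was 0.21 at 1.5-fold, 0.47 at 4-fold, 0.45 with mitochondrial genes, and 0.21 both centred on all genes and within these groups. That of RNA-lower genes was -0.47, and -0.50 with an RNA pseudocount of 0.5, -0.40 with a minimum of 0.2, -0.33 at 1.5-fold, -0.64 at 4-fold, -0.38 with an accessibility pseudocount of 5, -0.26 with mitochondrial genes, -0.51 centred and -0.34 within these groups. The 78.0% of RNA-higher genes above the median of all genes became 71.9% (pseudocount of 0.02), 92.1% (0.5), 88.3% (no minimum) and 93.3% (4-fold), and the 85.7% of RNA-lower genes below it 89.4% (0.5), 78.8% (no minimum), 79.3% (1.5-fold), 97.8% (4-fold) and 82.7% (within these groups). Before the start only, CNCCTCAG was in 11.3% and GGGCGG in 62.8% of RNA-higher promoters. Of 304 list medians, 268 stayed within their interval and 14 took the other sign. Of these 14, 9 were medians of accessibility with mitochondrial genes in the total, 3 of accessibility centred within groups and 2 of RNA with another minimum. For 2 of the 9 the interval of the reported median had excluded 0: imprinted genes (0.0052) and the study's mitosis list (0.16). Low RNA kept 15056 genes under the minimum out of the comparison. The cause of these shifts was not tested.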
